A study of Mus musculus with 59 samples.

Results

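The genes described here are 33 genes of microglia and of the complement system, read in whole cortex and whole hippocampus of mice. They were taken by symbol from a deposited table of raw read counts with 57180 rows. Itgam had 2 rows, so 34 rows matched, and the second Itgam row, which held almost no reads, was set aside. The series holds 59 bulk RNA-seq libraries from 30 male mice, of which 29 gave both tissues, and asks how losing a copy of 2 mitochondrial genes of the 22q11.2 deletion interval acts singly and in combination. The product of Slc25a1 carries citrate out of mitochondria, and that of Mrpl40 is part of the large subunit of their ribosome. The 4 labelled genotypes were wild type (Mrpl40 +/+,Slc25a1 +/+), Slc25a1 heterozygous (Mrpl40 +/+,Slc25a1 -/+), Mrpl40 heterozygous (Mrpl40 -/+,Slc25a1 +/+) and doubly heterozygous (Mrpl40 -/+,Slc25a1 -/+). Cortex had 9, 7, 7 and 7 libraries in that order and hippocampus 8, 7, 7 and 7. The sources used here give neither the kind of allele nor the age or strain.

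Microglia are the resident macrophages of the brain. They depend on signalling through Csf1r and survey neurons through receptors such as Cx3cr1 and P2ry12. They are also the main source of C1q in the brain, the recognition molecule that opens the classical complement pathway. C1q is built from the products of C1qa, C1qb and C1qc, neighbouring genes on the same chromosome. Bound C1q leads to cleavage of C4 and then of C3, and C3 fragments are read by complement receptor 3, of which Itgam encodes a chain. In the developing brain this cascade is known for tagging synapses that microglia then remove.

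The C1q genes move together in these libraries, so the stretch before the start of each is shown where RefSeq's promoter table held it. The window runs from 250 bases before to 50 bases after the annotated gene start on GRCm38.p6, minus strand, 5′ to 3′: chr4:136886151-136886450 for C1qb and chr4:136892865-136893164 for C1qc. Capitals mark GAGGAA, or TTCCTC where it lies on the opposite strand, the core of the sites bound by PU.1, the transcription factor that macrophages and microglia require.
C1qb: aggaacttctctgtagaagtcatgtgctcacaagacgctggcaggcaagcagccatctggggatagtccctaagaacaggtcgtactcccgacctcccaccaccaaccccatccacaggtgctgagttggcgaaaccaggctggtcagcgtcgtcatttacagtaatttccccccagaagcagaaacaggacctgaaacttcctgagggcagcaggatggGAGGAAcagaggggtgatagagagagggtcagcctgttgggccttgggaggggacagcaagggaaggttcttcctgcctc
C1qc: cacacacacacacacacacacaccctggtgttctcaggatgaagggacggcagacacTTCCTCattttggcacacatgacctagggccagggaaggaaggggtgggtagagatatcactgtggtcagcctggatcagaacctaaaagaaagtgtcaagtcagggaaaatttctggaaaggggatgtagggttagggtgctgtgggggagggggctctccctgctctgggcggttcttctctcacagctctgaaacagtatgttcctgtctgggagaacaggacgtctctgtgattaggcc
The C1qb match starts 30 bases before the gene start on the gene's own strand. The C1qc match lies on the other strand with its first base 193 bases before the start, and there the letters extend to GAGGAAGT. With both strands searched, GAGGAA was present in the windows of 15 of the 26 listed genes that were matched (57.7%), against 31.3% of the 27025 genes in the table. The longer GAGGAAGT, which contains GAGGAA, was present in 4 of the 26 (C1qc, Cd53, Ctss and Inpp5d, 15.4%), against 3.7% of the genes. Tmem119, Tyrobp, Gpr34, C1qa, Selplg, Csf1r and C4b were not matched. The search of listed genes left out a chromosome that the shares over all genes kept, so a listed gene lying there would count as not matched. A match describes letters in a window and was not tested as a binding site.

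Libraries held between 21443017 and 32120906 assigned reads, with a median of 27161340. The level of Slc25a1 checked the labels. It fell into separate ranges, 10.8 to 13.1 CPM (reads of a gene scaled by the total of its library) in 24 libraries and 21 to 27.3 CPM in 35. In 6 animals (12 libraries) it went against the label in both tissues: 2 animals labelled wild type were low, and 2 labelled Slc25a1 heterozygous and 2 labelled doubly heterozygous were high. Groups are therefore called by their labels throughout, and values without those animals stand beside the results. Mrpl40 gave no such check, since its mean in cortex was 17.9 ± 1.56 CPM (SD, n = 9) in libraries labelled wild type and 17.4 ± 1.58 CPM (SD, n = 7) in those labelled Mrpl40 heterozygous. A single hippocampal library, replicate 3 labelled Slc25a1 heterozygous, held 400 CPM of summed cerebellar and thalamic markers, 11.2 times the median of its tissue. Another hippocampal library of that genotype, replicate 7, had the highest level of 16 of the 33 genes among the 29 hippocampal libraries. In cortex, wild-type replicate 6, from an animal whose Slc25a1 level was low, had the highest level of 13 of the 33 among 30.

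The microglial genes were present in every library, and the defining pair C1qa and C1qb never fell below 19.4 and 22.7 CPM. Divided by exon length, the most abundant listed transcript was Cst3, the secreted protease inhibitor cystatin C, which astrocytes also make in quantity. It stood at 418 CPM per kb in cortex and 588 CPM per kb in hippocampus. Next came the lysosomal proteases Ctsd, Lgmn and Ctss, at 58.4, 44.5 and 37 CPM per kb in cortex. C1qb and C1qa followed at 27.7 and 26.2 CPM per kb, ahead of the growth factor receptor Csf1r at 17, the ADP receptor P2ry12 at 15, C1qc at 13 and the fractalkine receptor Cx3cr1 at 12.4. C3, the central complement protein, was at the bottom in both tissues, at 0.0376 CPM per kb in cortex and 0.0519 in hippocampus, and was too low to be tested. C4b, which encodes complement C4, held rank 31 of the 33 in cortex and rank 15 in hippocampus. In bulk tissue, fewer cells of a type and less RNA per cell cannot be told apart, and this holds for every level and difference below.

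**Figure D1:**
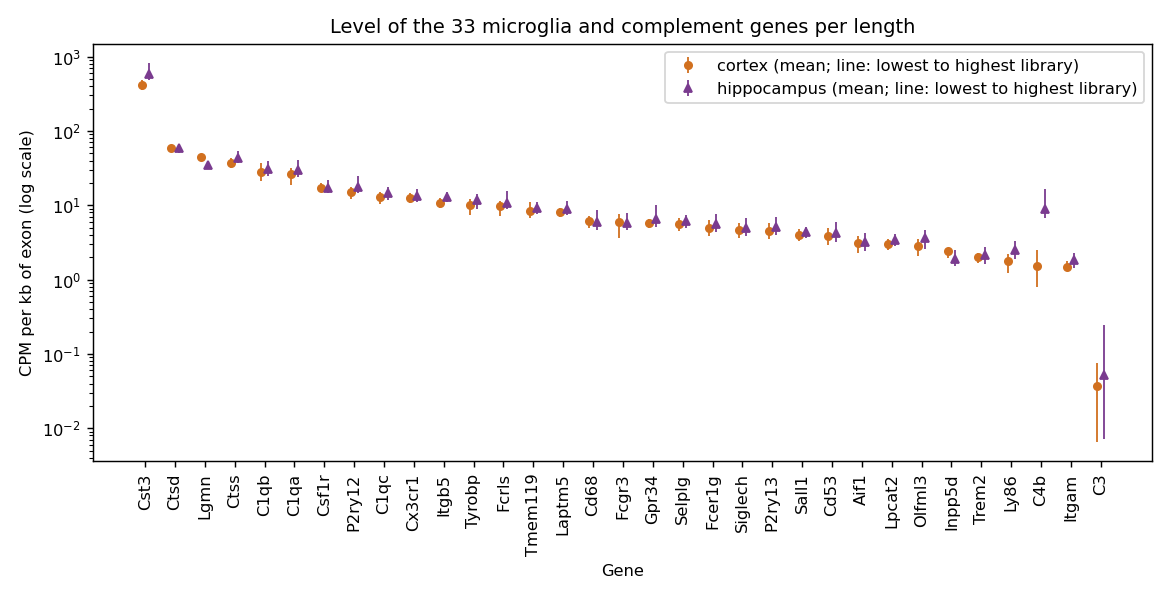
Mean level of each of the 33 genes per kb of exon on a log scale (y axis, CPM per kb) against the gene (x axis), with circles for 30 cortical and triangles for 29 hippocampal libraries and lines from the lowest to the highest library. Cst3 stands highest and C3 lowest in both tissues, and C4b is the gene whose symbols lie farthest apart.

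In cortex, C1qa fell in the libraries labelled doubly heterozygous. The 9 wild-type libraries ranged from 28.4 to 33.4 CPM with a median of 30 CPM. The doubly heterozygous ones ranged from 23.7 to 26.2 CPM with a median of 24.6 CPM. All 7 lay below the lowest wild-type library, so the groups did not overlap. C1qa fell by 19.1% in the doubly heterozygous group, a log2 difference of -0.31 ± 0.060 (SE; 95% interval -0.43 to -0.18; adjusted p = 0.0262, edgeR quasi-likelihood test with Benjamini-Hochberg adjustment over 20394 genes). C1qa was the only tested member among 32 that passed in this comparison, in which 0.0686% of all tested genes passed. Of the 32, 29 lay below 0, against 51.4% of all genes, and 13 had an unadjusted p under 0.05, against 10.9%. Groups without overlap were found for C1qa and Selplg, against 0.118% of all tested genes. The C1qa call was lost, with adjusted p from 0.0557 to 0.084 (edgeR), when wild-type replicate 2, 6 or 9 or doubly heterozygous replicate 2, 4, 5, 6 or 7 was left out, while the log2 difference stayed between -0.32 and -0.28. With trends in gene length and GC content removed it was -0.23 (adjusted p = 0.109, edgeR).

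The libraries labelled Mrpl40 heterozygous were more spread for C1qa, from 19.4 to 30.8 CPM with a median of 24.8 CPM. Of these 7 libraries, 6 lay below every wild-type library, and replicate 2, the highest, lay inside the wild-type range. The log2 difference was -0.28 ± 0.060 (SE), which missed the threshold (adjusted p = 0.0752, edgeR); 0.0294% of all genes passed and no member did. With each of the 30 libraries left out in turn, it ran from -0.33 to -0.22 (adjusted p from 0.00436 to 0.332, edgeR) and passed in 1 of 30 cases, the omission of replicate 2. Without the 6 animals against their label it was -0.27 ± 0.065 (SE; adjusted p = 0.222, edgeR). DESeq2 called C1qa, among 23 genes in all, against 6 by edgeR. At an unadjusted p under 0.05 by edgeR there were 10 members of 32, against 6.94% of all genes. Of the 32, 27 lay below 0, against 51% of all genes.

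C1qb and C1qc, the genes of the other C1q chains, lay below wild type by less. C1qb ranged from 28.3 to 40 CPM (median 31.7) in cortex labelled wild type, from 22.7 to 30.6 CPM (median 27.7) in Mrpl40 heterozygous and from 25.9 to 31.1 CPM (median 28.4) in doubly heterozygous libraries. These ranges overlapped, with 5 of 7 and 3 of 7 libraries below every wild-type one. Its log2 differences were -0.23 ± 0.062 and -0.20 ± 0.063 (SE; adjusted p = 0.333 and 0.216, edgeR). C1qc ranged from 23.9 to 29.1 CPM (median 26.5) in wild type and from 20.3 to 26.4 CPM (median 23.8) in doubly heterozygous libraries, a log2 difference of -0.19 ± 0.063 (SE; adjusted p = 0.24, edgeR). Its difference in Mrpl40 heterozygous libraries, which ranged from 20 to 27.7 CPM (median 24.2), was -0.14 ± 0.062 (SE; adjusted p = 0.688, edgeR).

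The 3 chains were also taken on their own, with a 2-sided exact permutation test of mean log2 CPM for each of 18 comparisons with wild type. After Benjamini-Hochberg adjustment over those 18, C1qa in the doubly heterozygous cortex had an exact p = 0.000175 (adjusted 0.00315) and C1qa in the Mrpl40 heterozygous cortex 0.0014 (adjusted 0.0126). C1qb had exact permutation p-values of 0.0035 and 0.00734 (adjusted 0.021 and 0.0264) in the Mrpl40 and doubly heterozygous cortex. C1qc had 0.00664 (adjusted 0.0264) in the doubly heterozygous cortex. None of the 9 hippocampal comparisons passed, the lowest exact permutation p being 0.0761 (adjusted 0.171) for C1qa in Mrpl40 heterozygous animals. Without the 6 animals against their label, C1qa had exact permutation p-values of 0.00253 in the doubly heterozygous and 0.00408 in the Mrpl40 heterozygous cortex (both adjusted 0.0367). C1qb and C1qc no longer passed then, with adjusted exact permutation p-values of 0.0727 and 0.0684 in the doubly heterozygous and, for C1qb, 0.0684 in the Mrpl40 heterozygous cortex. The C1q genes were picked knowing that they had moved in cortex, so these p-values are no independent support.

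**Figure D2:**
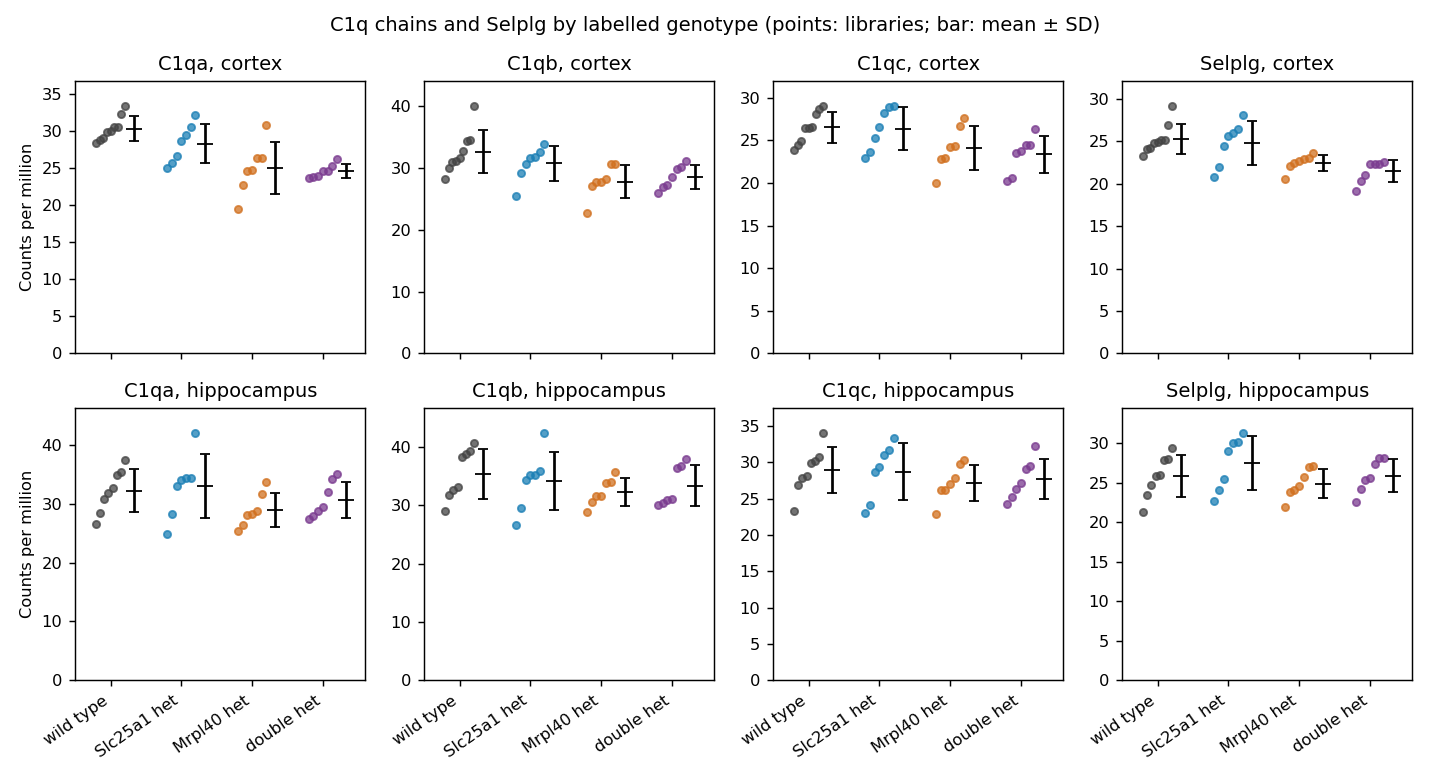
Level of C1qa, C1qb, C1qc and Selplg (y axis, CPM) in each library by labelled genotype (x axis), cortex above and hippocampus below, with points for libraries and bars for mean ± SD. In cortex the 7 doubly heterozygous libraries sit between 23.7 and 26.2 CPM for C1qa, all below the 9 wild-type libraries, while the hippocampal groups overlap.

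Selplg encodes the selectin ligand PSGL-1, which microglia carry in the resting brain. In cortex it ranged from 23.3 to 29.2 CPM (median 24.9) in libraries labelled wild type, from 20.6 to 23.6 CPM (median 22.6) in Mrpl40 heterozygous and from 19.2 to 22.6 CPM (median 22.3) in doubly heterozygous ones. All 7 doubly heterozygous libraries and 6 of 7 Mrpl40 heterozygous ones lay below every wild-type library. Against wild type its log2 differences were -0.17 (adjusted p = 0.528, edgeR) in Mrpl40 heterozygous and -0.24 ± 0.053 (SE; adjusted p = 0.0599, edgeR) in doubly heterozygous cortex. All of these cortical comparisons with wild type share the same 9 wild-type libraries.

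To use all cortical libraries, the 14 labelled Mrpl40 -/+ were compared with the 16 labelled Mrpl40 +/+ while the Slc25a1 label was kept in the model. C1qa fell by 15.3% (log2 -0.24 ± 0.044, SE; adjusted p = 0.00774, edgeR) and Selplg fell by 12.3% (log2 -0.19 ± 0.039, SE; adjusted p = 0.0326, edgeR). These were the 2 members of 32 that passed, where 0.0637% of all genes passed. C1qa passed with any 1 of the 30 libraries left out. Selplg passed in 19 of the 30 cases and was lost, with adjusted p from 0.0536 to 0.0885 (edgeR), without Mrpl40 heterozygous replicate 3 or 5, Slc25a1 heterozygous replicate 2, 3, 5 or 6, wild-type replicate 6 or 9, or doubly heterozygous replicate 2, 4 or 5. Without the 6 animals whose Slc25a1 level went against the label, neither passed, at -0.22 ± 0.051 (adjusted p = 0.137, edgeR) for C1qa and -0.15 (adjusted p = 0.355, edgeR) for Selplg. In the doubly heterozygous comparison the same omission gave -0.31 ± 0.073 (adjusted p = 0.239, edgeR) for C1qa, a size within 1 SE of the value with all animals.

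Across roles, 29 of the 32 tested genes lay below 0 for the Mrpl40 label in cortex, with a median log2 difference of -0.09, against 52.1% of all genes below 0 and a median of -0.00373. All 3 C1q chains, 9 of 11 identity genes, all 6 of a group that holds genes of Trem2 and Fc receptor signalling and Ly86, 6 of 7 cytoskeletal, adhesion and membrane genes and all 4 lysosomal genes lay below 0. At an unadjusted p under 0.05 there were 14 (43.8%), against 11.6% of all genes. Cst3 had the third lowest p of the list, at -0.13 ± 0.035 (SE; adjusted p = 0.0881, edgeR). The remaining genes of this paragraph were picked after their values were seen. Fcgr3, an activating Fc receptor, was at -0.20 and Ly86, a partner of the receptor Cd180, at -0.16. Several identity genes were close to 0: Gpr34, a lysophospholipid receptor, at 0.00, the transcription factor Sall1 at 0.04 and Cx3cr1 at -0.05. Aif1, which encodes Iba1, a usual stain for microglia, was at 0.04, and the tetraspanin Cd53 at -0.01.

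**Figure D3:**
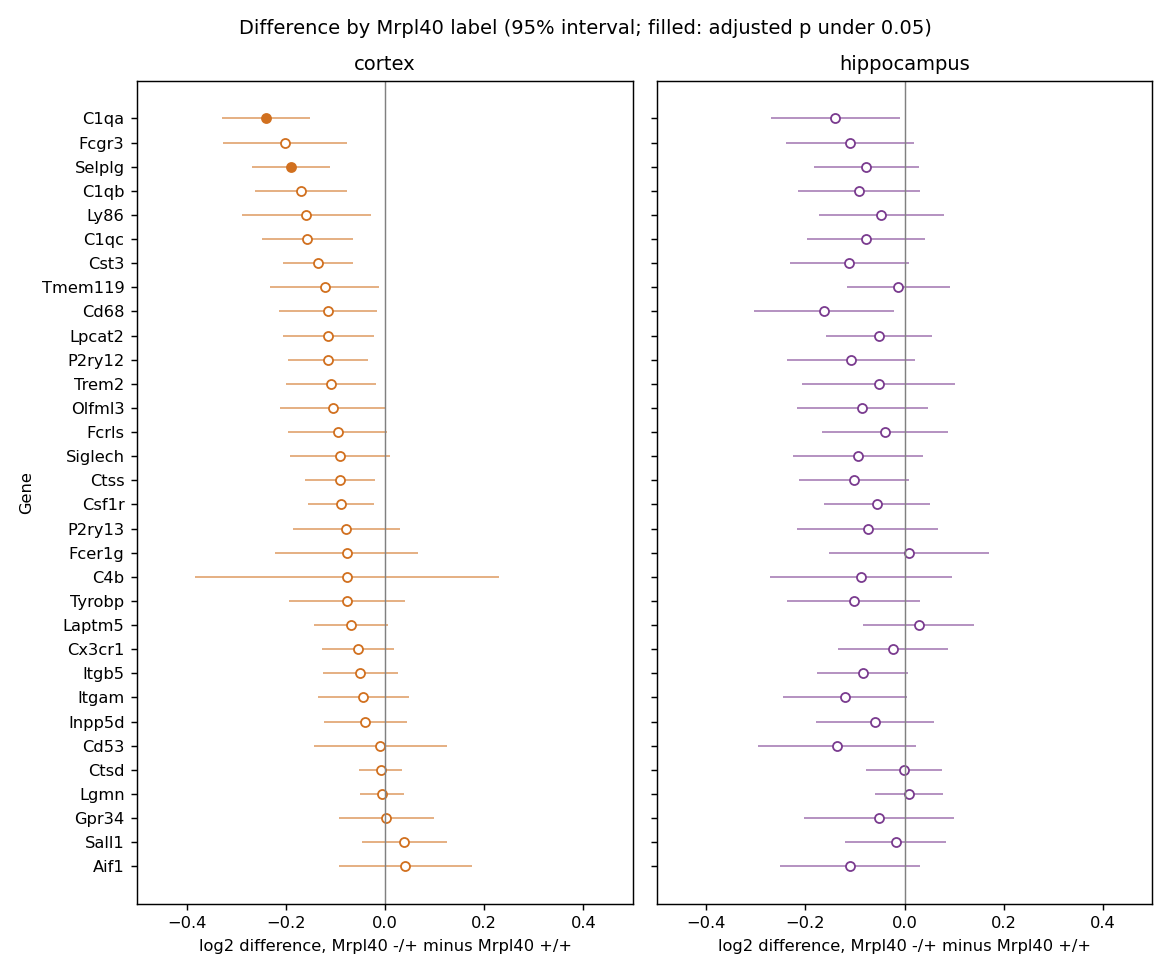
Log2 difference between libraries labelled Mrpl40 -/+ and Mrpl40 +/+ (x axis) for each tested gene (y axis), cortex at left and hippocampus at right, with 95% intervals and filled points for an adjusted p under 0.05. C1qa and Selplg are the filled points in cortex, and no point is filled in hippocampus.

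Other gene lists gave the setting of this difference. Of 30 further microglial genes, 25 lay below 0 in cortex for the Mrpl40 label (median -0.06) and none passed by edgeR. At an unadjusted p under 0.05 there were 6. Of 27 other tested complement genes, 12 lay below 0 and none passed. Apoe, a lipid carrier made by astrocytes and by reactive microglia and a ligand of Trem2, passed at -0.20 ± 0.040 (SE; adjusted p = 0.0299, edgeR). Markers of other cells were also off 0: all 12 astrocyte markers lay below 0 (median -0.06), all 12 oligodendrocyte markers above 0 (median 0.16) and 11 of 12 neuronal markers above 0 (median 0.05), with none passing. Summed astrocyte markers ranged from 5960 to 6780 CPM in cortex labelled wild type, from 5570 to 6490 CPM in Mrpl40 heterozygous and from 5610 to 6340 CPM in doubly heterozygous libraries. Summed neuronal markers ranged from 10400 to 11700, from 11300 to 12400 and from 11300 to 12000 CPM in the same groups. The part of these shifts in the C1qa difference was not tested. Markers of border macrophages, which also make C1q, summed to 16.9 to 33.6 CPM in wild type, 17.3 to 29.6 CPM in Mrpl40 heterozygous and 18.9 to 30.4 CPM in doubly heterozygous cortex. Blood immune markers summed to at most 2.5 CPM in any cortical library. They ranged from 1.22 to 1.88 CPM (median 1.53) in wild type and from 0.888 to 1.57 CPM (median 1.25) in Mrpl40 heterozygous cortex. In doubly heterozygous cortex they ranged from 1.41 to 2.5 CPM (median 2.22). Within this list, libraries without a read ran from 0 of 59 for Cd79a to 35 of 59 for Ngp.

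The Slc25a1 label gave no passing member in cortex. Against wild type, the libraries labelled Slc25a1 heterozygous had C1qa from 25 to 32.2 CPM (median 28.6), overlapping wild type, with a log2 difference of -0.10 ± 0.060 (SE; adjusted p = 1, edgeR). C1qb and C1qc were at -0.09 and -0.01. Over all genes 0% passed by edgeR, and 0 members passed by DESeq2, for which the share of all genes is not given. By edgeR, 0 of 32 had an unadjusted p under 0.05, against 3.17% of all genes. Of the 32, 23 lay below 0, against 50.3% of all genes. With the Mrpl40 label kept in the model, C4b stood farthest from 0 for the Slc25a1 label, at 0.37 ± 0.149 (SE; adjusted p = 0.968, edgeR), and was the 1 member with an unadjusted p under 0.05, against 4.79% of all genes. For this label 21 of 32 lay below 0, against 51% of all genes. By edgeR or DESeq2 0 passed, where 0% of all genes passed by edgeR. The interaction of both labels asks whether the double heterozygote departs from the sum of the single ones. It gave 0 members by edgeR, 0 by DESeq2 and 0 at an unadjusted p under 0.05 (edgeR). Over all genes, 0% passed by edgeR and 5.35% had an unadjusted p under 0.05. For the interaction 17 of 32 lay below 0, against 49.4% of all genes. For C1qa it was 0.07 ± 0.087 (SE; 95% interval -0.10 to 0.25). Without the 6 animals against their label, 0 members passed by edgeR in any of these contrasts: 17 of 32 lay below 0 in Slc25a1 heterozygous cortex, 21 for the Slc25a1 label and 18 for the interaction. The share of all genes below 0 is not given for this omission, so whether these counts are particular to the members is not shown. C1qa in Slc25a1 heterozygous cortex was then at -0.13 ± 0.071 (SE; adjusted p = 1, edgeR) and C4b for the Slc25a1 label at 0.45 ± 0.176 (SE; adjusted p = 0.706, edgeR).

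In hippocampus, no member passed for any genotype by edgeR or DESeq2. C1qa ranged from 26.6 to 37.4 CPM (median 32.3) in libraries labelled wild type, from 25.4 to 33.7 CPM (median 28.2) in Mrpl40 heterozygous and from 27.5 to 35.1 CPM (median 29.5) in doubly heterozygous ones. The groups overlapped over most of their range. Against wild type C1qa was at -0.17 ± 0.089 (SE; adjusted p = 0.631, edgeR) in Mrpl40 heterozygous and at -0.07 ± 0.089 (SE; adjusted p = 0.994, edgeR) in doubly heterozygous hippocampus. C1qb and C1qc were at -0.14 and -0.10 in Mrpl40 heterozygous and at -0.09 and -0.06 in doubly heterozygous hippocampus. For the Mrpl40 label, 29 of 32 members lay below 0 (median -0.08), against 54.7% of all genes, and 2 had an unadjusted p under 0.05, against 14.3% of all genes. These were Cd68, a lysosomal glycoprotein of phagocytes, at -0.16 ± 0.069 and C1qa at -0.14 ± 0.064 (SE; adjusted p = 0.284 and 0.318, edgeR). Over all genes, 0.109% passed here by edgeR. All 12 astrocyte markers (8 with an unadjusted p under 0.05) and all 12 endothelial and pericyte markers also lay below 0, and 10 of 12 neuronal markers above 0 (7 with an unadjusted p under 0.05). The part of these shifts in the members' values was not tested. Against wild type, 0 members had an unadjusted p under 0.05 in either the Mrpl40 heterozygous or the doubly heterozygous hippocampus, where 0.00496% and 0.00992% of all genes passed and 8.19% and 5.28% had an unadjusted p under 0.05. Of the 32 members, 26 lay below 0 in the Mrpl40 heterozygous hippocampus, against 52.9% of all genes, and 16 in the doubly heterozygous one, against 51.4%. The interaction gave 0 members at an unadjusted p under 0.05, against 3.39% of all genes, with 0% of all genes passing and 19 of 32 members below 0, against 50.6%. With the 6 animals against their label omitted, 0 members passed by edgeR in any of these contrasts. Below 0 lay 31 of 32 for the Mrpl40 label, 25 in Mrpl40 heterozygous hippocampus, 22 in doubly heterozygous hippocampus and 28 for the interaction. The share of all genes below 0 is not given for this omission, so whether these counts are particular to the members is not shown. For the Mrpl40 label C1qa was then at -0.16 ± 0.075 (SE; adjusted p = 0.44, edgeR).

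For the Slc25a1 label in hippocampus most members lay above 0, and none passed by edgeR or DESeq2. Against wild type, 28 of 32 lay above 0 (median 0.11), with 48.1% of all genes below 0 and 0% passing by edgeR. The 5 with an unadjusted p under 0.05 were Gpr34 (0.30 ± 0.103), Fcrls, an Fc receptor-like scavenger receptor (0.24), C4b (0.33 ± 0.124), Ly86 (0.22) and Csf1r (0.15), with adjusted p from 0.525 to 0.639 (edgeR), against 7.77% of all genes. C1qa, C1qb and C1qc were at 0.04, -0.05 and -0.0036. Gpr34 ranged from 11.3 to 14.5 CPM (median 12.7) in wild type and from 12.1 to 21.2 CPM (median 15.2) in Slc25a1 heterozygous libraries, which overlapped. The highest value of many of these genes came from replicate 7, and without that library 9 of 32 lay below 0, the median was 0.07, and the values were -0.03 for C1qa, -0.11 for C1qb, -0.05 for C1qc, 0.20 for Gpr34, 0.15 for Fcrls, 0.18 for C4b, 0.17 for Ly86 and 0.10 for Csf1r. With the Mrpl40 label in the model, 30 of 32 lay above 0 for the Slc25a1 label (median 0.07) and 6 had an unadjusted p under 0.05, against 9% of all genes. Without replicate 7, 5 of 32 lay below 0 and the median was 0.06. The share of all genes below 0 without replicate 7 is not given for either Slc25a1 comparison. All 12 astrocyte and all 12 endothelial and pericyte markers lay above 0 as well, and 9 of 12 neuronal markers below 0. When the 6 animals against their label were omitted, 0 members passed by edgeR, and 4 of 32 lay below 0 against wild type and 6 for the Slc25a1 label. The share of all genes below 0 is not given for this omission either. Against wild type Gpr34 was then at 0.33 ± 0.121 and C4b at 0.46 ± 0.142 (SE; adjusted p = 0.776 for both, edgeR).

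Whether the genotypes acted differently in the 2 tissues was tested within animals. No member passed for the Mrpl40 label, the Slc25a1 label or the double heterozygotes by edgeR or DESeq2. By edgeR, 0.0843%, 0% and 0.0234% of all genes passed, and the shares by DESeq2 are not given. For C1qa in double heterozygotes, the hippocampal difference exceeded the cortical one by 0.23 ± 0.087 on the log2 scale (SE; unadjusted p = 0.0123, adjusted p = 0.896, edgeR). At an unadjusted p under 0.05 there were 0, 5 and 5 members for the 3 contrasts, against 8.48%, 7.85% and 5.03% of all genes. The 5 for the double heterozygotes were Ly86 (0.33 ± 0.118, SE), C1qa, Lpcat2, Selplg and Csf1r. With the 6 animals against their label omitted, 0 members passed for any of the 3 contrasts by edgeR, the median over 33 tested members was -0.00254 for the Mrpl40 label, 0.07 for the Slc25a1 label and 0.04 for the double heterozygotes, and C1qa in double heterozygotes was at 0.18 ± 0.110 (SE; adjusted p = 1, edgeR). The cortical C1qa difference was thus not shown to differ from the hippocampal one.

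Between the tissues, C4b stood apart and the other listed genes differed by less. In 29 animals with both tissues, 25 of 32 members passed in the hippocampus against the cortex, 23 higher and 2 lower, where 77.5% of all genes passed, 39.8% higher and 37.7% lower. The share of members that passed was thus near that of all genes. C4b ranged from 4.5 to 14.4 CPM over all cortical libraries and from 38.8 to 93.5 CPM over all hippocampal ones, which did not overlap. It was 5.84-fold higher in hippocampus (log2 2.55 ± 0.084, SE; adjusted p = 1.69e-20, edgeR) and higher in 29 of 29 animals. Reads of C4b may be shared with its near-identical neighbour C4a, so its level is uncertain. Cst3 and Ly86 were higher in 29 of 29 animals as well, by 0.49 and 0.51 on the log2 scale. Among the complement genes of microglia, C1qa, C1qb and C1qc were higher by 0.21 ± 0.031, 0.17 ± 0.031 and 0.16 ± 0.038 (SE), in 25, 25 and 23 of 29 animals. Itgam was higher by 0.28.

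Of the identity genes, 9 of 11 were higher in hippocampus, from Cx3cr1 at 0.09 to Olfml3, a secreted glycoprotein, at 0.35. Csf1r at 0.02 did not pass (adjusted p = 0.571, edgeR). The genes that were lower were Lgmn, the protease legumain, by -0.35 (lower in 29 of 29 animals), and Inpp5d, the phosphatase SHIP1 that restrains Trem2 and Fc receptor signals, by -0.33 (lower in 27 of 29). Cd68, Fcgr3, Ctsd, Aif1, Trem2 and Siglech did not pass. Hippocampus also differed in its other cells: of 12 neuronal markers 10 were lower and none higher, and of 30 further microglial genes 12 were higher and 3 lower.

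**Figure D4:**
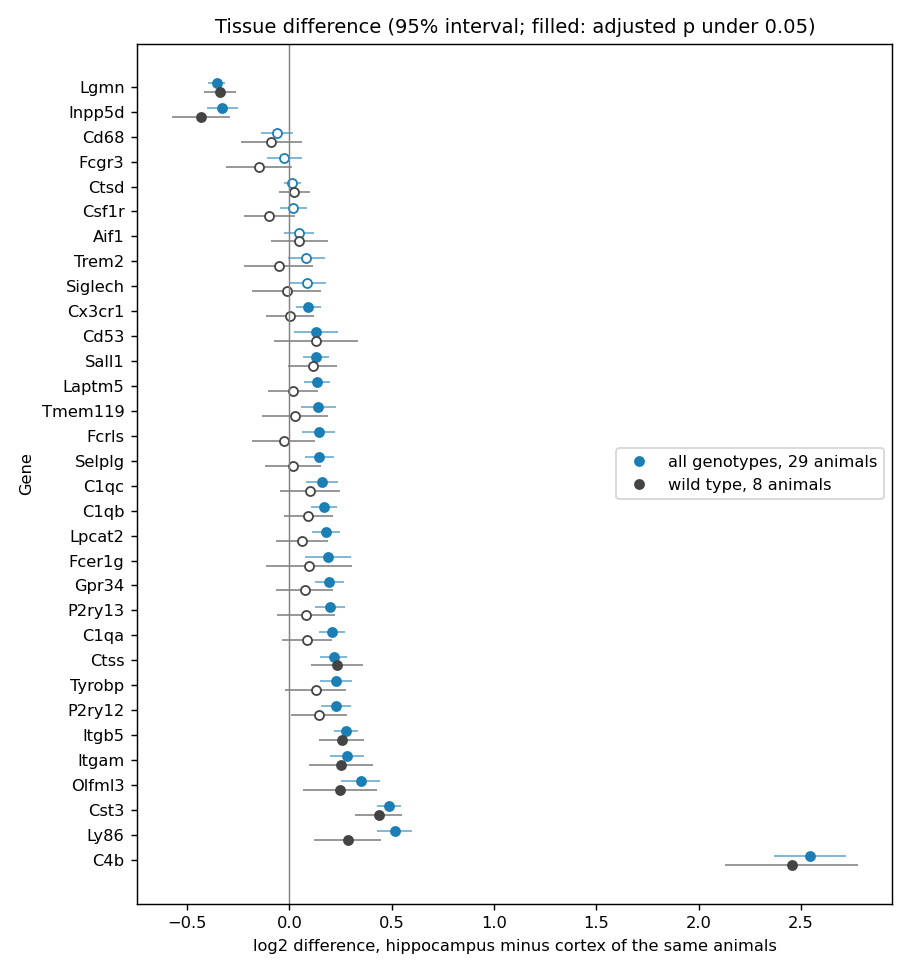
Log2 difference between hippocampus and cortex of the same animals (x axis) for each tested gene (y axis), with 95% intervals, for all 29 animals and for the 8 wild-type animals alone, and filled points for an adjusted p under 0.05. C4b lies far to the right at 2.55, and Lgmn and Inpp5d lie left of 0.

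In the 8 animals labelled wild type alone, 9 members passed, where 60.6% of all genes passed (30.4% higher and 30.1% lower): C4b (2.46), Cst3 (0.44), Ly86 (0.29), Itgb5 (0.26), Itgam (0.25), Olfml3 (0.25) and Ctss (0.23) were higher and Lgmn (-0.34) and Inpp5d (-0.43) lower. C1qa at 0.09 did not pass there (adjusted p = 0.213, edgeR) and was higher in 6 of 8 animals. When the 6 animals against their label were omitted, Olfml3 no longer passed in wild type (0.24, adjusted p = 0.093, edgeR), and in all genotypes 24 members passed, Cd53 being lost (0.10, adjusted p = 0.117, edgeR). The count over all genes is not given for this omission.

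Within genotypes, C1qa varied together with the other C1q chains in both tissues and with most listed genes in hippocampus. With each genotype's mean removed, C1qa and C1qb had Pearson's r = 0.664 (adjusted permutation p = 0.00272) and Spearman's rho = 0.638 (adjusted permutation p = 0.00848) over 30 cortical libraries and r = 0.935 (adjusted permutation p = 4e-05) and rho = 0.911 (adjusted permutation p = 3.56e-05) over 29 hippocampal ones. Without the 2 libraries farthest from the median C1qa level, r was 0.548 and 0.902. For C1qa and C1qc, r was 0.691 in cortex and 0.861 in hippocampus. Of 32 such relations of C1qa with another member, 5 passed by r in cortex (C1qb, C1qc, Csf1r, Ctss and Cst3; median r over all 32, 0.283) and 28 in hippocampus (median r 0.736). By rho as well as r, 2 passed in cortex, C1qb and C1qc, and 28 in hippocampus, while Csf1r, Ctss and Cst3 in cortex had adjusted permutation p-values of 0.114, 0.109 and 0.109 by rho. The 4 that did not pass in hippocampus were Lgmn, C4b, Sall1 and C3. With the 6 animals against their label omitted, 2 passed by r in cortex and 29 in hippocampus, and 0 and 28 by both measures.

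Cell composition can differ between libraries, so other cell types were set beside C1qa. In hippocampus C1qa correlated with summed markers of astrocytes (r = 0.708), endothelial cells and pericytes (r = 0.658) and red cells (r = 0.691) as well as with the 30 further microglial genes (r = 0.832), and negatively with neuronal markers (r = -0.436). By r, adjusted permutation p-values for these 5 lists ran from 0.00016 to 0.022 among 16 lists, of which 8 passed. By rho as well as r, 7 passed, and the neuronal list did not (adjusted permutation p = 0.05 by rho). With the 6 animals against their label omitted, 6 lists passed by r in hippocampus, all positive, so the neuronal list no longer did. In cortex none of the 16 lists passed, the lowest adjusted permutation p being 0.144 by r. For the same 5 lists, r in cortex was -0.482 with neuronal markers and 0.423 with the 30 further microglial genes. It was 0.0962 with astrocyte, 0.108 with endothelial and pericyte and 0.235 with red cell markers. No relation was shown between the level of a gene in cortex and its level in hippocampus of the same 29 animals. None of 33 genes passed, with a median r of 0.00, 17 of 33 above 0 and the highest r for Aif1, 0.567 (adjusted permutation p = 0.0924). C1qa and C1qb had r = 0.347 and 0.282 (adjusted permutation p = 0.66 and 0.825).

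**Figure D5:**
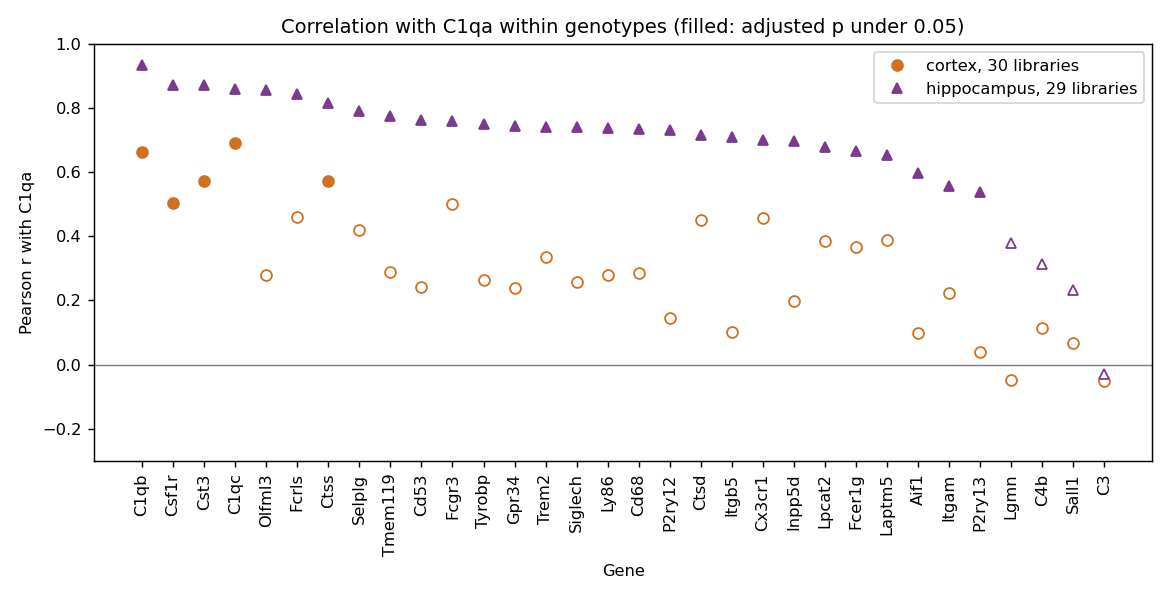
Pearson's r of each gene with C1qa after removal of genotype means (y axis) by gene (x axis), circles for 30 cortical and triangles for 29 hippocampal libraries, filled where the adjusted permutation p is under 0.05. The hippocampal points lie above the cortical ones for most genes, and C1qb stands highest in hippocampus at 0.935.

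Apart from C3, C4b varied most between libraries of a genotype, with an SD of 0.404 in cortex and 0.237 in hippocampus on the log2 scale. In cortex it ranged from 4.5 to 12.9 CPM (median 6.61) in wild type, from 7.89 to 13.5 CPM (median 8.95) in Slc25a1 heterozygous, from 5.65 to 8.81 CPM (median 6.66) in Mrpl40 heterozygous and from 6.39 to 14.4 CPM (median 9.69) in doubly heterozygous libraries. All 4 ranges overlapped. In hippocampus, Slc25a1 heterozygous libraries ranged from 43 to 93.5 CPM (median 53) and wild-type ones from 40.2 to 53.2 CPM (median 48.3). C3 stayed at or under 1.26 CPM in every library. Among other complement genes, C9 had no read in 58 and C6 none in 57 of the 59 libraries.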

How the data were processed

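Poly(A) RNA of whole cortex and hippocampus was sequenced with a directional kit, per the labels' protocols. Reads were checked with FastQC, aligned to GRCm39 with HISAT2 and counted per gene with featureCounts, per the submitters' processing notes, which also name DESeq2. The sources used here do not give the strand setting of featureCounts. The deposited raw counts, as the authors made them, were used, and a second, normalised table was not used. Of 57180 rows, 7074 had a blank symbol but a gene identifier and were kept in library sizes and tests.

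Genotype, tissue and animal were taken from the labels, which call the samples biological replicates. p-values measure the spread between these animals. Counts were scaled by TMM, filtered by edgeR's filterByExpr (20394 genes in cortex, 20162 in hippocampus, 21354 in both; 32 of the 33 listed genes, all but C3) and tested with edgeR 4.0.16 (R 4.3.3, quasi-likelihood, Benjamini-Hochberg over all genes, threshold 0.05). Genotypes were fitted with all 4 groups of a tissue. Tissues were compared with the animal as a block, since the labels give both tissues of 29 animals. Both tissues of 1 animal deviated together with a median r of 0.108 over 5000 genes, against -0.0085 for other animals. In 6 of the 29 animals the cortex correlated best with the hippocampus of the same animal. Percentages of genes and the medians beside them are over all tested genes and come from edgeR, also where members were tested by DESeq2 as well. CPM used library totals over filtered genes, scaled by TMM over all 59 libraries, and log2 CPM used a prior count of 2. Lengths of exon unions and GC content, from the GENCODE annotation on GRCm38 and so of another build than the counts, covered 97% of tested genes. Alternatives were DESeq2 1.42.0 and its size factors, no filter, length and GC offsets, a replicate block, and omission of libraries or animals. The listed genes, the other gene lists and the tests were chosen with earlier results of these data known. Named genes were the C1q chains, every member that passed and the 5 members with the lowest p in each comparison, and the text says where other members were picked after their values were seen. Correlations used 100000 permutations within genotype, the smallest p from which is 1e-05, with numpy 2.4.6 and scipy 1.17.1. No 2 libraries were identical (highest correlation 0.993906).

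The doubly heterozygous comparison in cortex was tested on simulated data with the counts' own means and library sizes, over 20195 genes. It recovered 26 of 67 genes changed 1.2-fold (38.8%) and 54 of 67 changed 1.5-fold (80.6%). More genes passed there than the 14 of the real comparison. The adjusted threshold was therefore easier to reach, and recovery in the data may be lower. Depth gave C1qa at least 720 reads in each wild-type cortical library. Fcgr3 and C4b have near-identical relatives, so their counts are uncertain.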

Additional observations from a re-analysis of the deposited data

Results flagged for a closer look

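Of 264 sets of 1 gene in 1 labelled group, 8 held a library far from the others by Dixon's criterion, where chance gives about 1 in 20. Each came from a different library. In cortex P2ry13 stood low in Slc25a1 heterozygous replicate 4, at 10.2 CPM, Ctss low in doubly heterozygous replicate 2, at 45.8 CPM, and Ctsd high in wild-type replicate 6, at 150 CPM. Sall1 stood high in doubly heterozygous replicate 1, at 25.2 CPM, Cd68 low in doubly heterozygous replicate 5, at 6.29 CPM, and Cd53 high in Mrpl40 heterozygous replicate 6, at 8.65 CPM. In hippocampus, Cd68 stood high in Slc25a1 heterozygous replicate 7, at 11.0 CPM, and C3 in Mrpl40 heterozygous replicate 5, at 1.26 CPM, where the next library of that group was at 0.358 CPM. In cortex, wild-type replicate 6, Slc25a1 heterozygous replicate 4 and doubly heterozygous replicate 5 come from animals whose Slc25a1 level went against the label. No member's genotype difference differed between the tissues past the threshold.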

How the results depend on the processing

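The counts of passing members were small and moved with the processing. DESeq2 called 1 member in the Mrpl40 heterozygous cortex, 2 in the doubly heterozygous cortex and 4 for the Mrpl40 label in cortex (C1qa, C1qb, Cst3 and Selplg). Over all genes it called 23 in the Mrpl40 heterozygous cortex, against 6 by edgeR, 161 for the Mrpl40 label in cortex, against 13 by edgeR, and 111 against 14 in the doubly heterozygous cortex. With length and GC trends removed there were 0 in the doubly heterozygous cortex, 1 for the Mrpl40 label and 15 for the tissue difference in wild type, with 8, 12 and 12795 of all genes called. Counts over all genes are not given for the settings that follow or for the replicate block below. Those counts of members therefore do not show whether members moved more than other genes. Without a filter on low counts there were 2 in the doubly heterozygous cortex. Without the 6 animals against their Slc25a1 label there were 0 in the doubly heterozygous cortex, 0 for the Mrpl40 label and 2 correlations of C1qa in cortex. Leaving out 1 library gave 0 to 1 members in the Mrpl40 heterozygous cortex, 0 to 2 in the doubly heterozygous cortex and 1 to 4 for the Mrpl40 label, the last alternative and the omission of hippocampal replicate 7 having been chosen after seeing the data. The causes were not tested. Each omission left fewer samples and also took out particular libraries, which cannot be told apart here. C1qa itself stayed below 0 in these cortical Mrpl40 and doubly heterozygous comparisons.

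By the labels, the replicate numbers of different genotypes mark different animals. Same-numbered cortical libraries deviated together with r from -0.405 to 0.532 (median 0.126, against -0.0232 for other numbers). Of 30 cortical libraries, 9 correlated best with their own number. Whether the number marks an effect shared by cortical libraries was not tested. With a replicate block, 0 members passed in the doubly heterozygous cortex, C1qa being at -0.295 (adjusted p = 0.0567, edgeR), and 1 for the Mrpl40 label. Signs turned for differences near 0 in Slc25a1 heterozygous animals: C1qc in cortex (0.00381) and C1qa in hippocampus (-0.0324) with the block, C1qc in hippocampus (0.0251) with length and GC trends removed, and C1qa in hippocampus (-0.0335) without replicate 7.
No cortical library had high cerebellar and thalamic markers, so that omission has no value in cortex. Of genes changed 1.2-fold, 38.8% were recovered in simulated doubly heterozygous cortex, where more genes passed than in the data. Recovery of such differences at this depth and number of animals may thus be lower.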
